A study of Mus musculus with 7 samples.

Results

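The genes described here encode the proteins of the cytosolic ribosome. They were taken from the count table by name: protein-coding genes whose symbol is Rpl or Rps followed by a digit, with Rplp0, Rplp1, Rplp2 and Rpsa, and without pseudogenes, S6 kinase genes (Rps6k) and Rps19bp1. This gave 85 of the 28786 genes in the table, 52 for the large subunit and 33 for the small subunit, spread over 19 chromosomes. Of these, 77 encode the core proteins (46 large, 31 small), and 8 are paralogs or retrogenes: Rpl3l, Rpl7l1, Rpl10l, Rpl22l1, Rpl36al, Rpl39l, Rps27l and Rps27rt.

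The libraries were made from cells sorted as haematopoietic stem cells (HSCs) from the marrow of leg bones (femur and tibia), with mice 6 to 8 weeks old and 1500 cells per library. The control group is normal mice, with no further treatment named. The MC38 group is C57BL/6J mice with MC38 colon cancer, a transplantable mouse colon carcinoma line. The sources used here do not give the site, size or duration of the tumour, nor the sort gates. Both groups went through the same red cell lysis, low-input poly(A) reverse transcription and 12 cycles of PCR. The study asked how a tumour biases HSCs towards myeloid output. No label ties a library to an animal of its own, so the p-values reflect the spread among libraries, and that spread may be technical.

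The table has 3 control and 4 MC38 columns, and control replicate 3 was not used as a library. For the 80 ribosomal protein genes with at least 200 counts in control replicates 1 and 2 together, its count divided by their sum lay between 0.342 and 0.356, a near-fixed ratio. The comparison is therefore 2 control against 4 MC38 libraries, which hold 12131546 to 17657037 counts each. In the cells as sorted, all 16 genes of the HSC list were detected. That list also holds Cd34, Flt3 and Cd48, which progenitors express, so it does not separate HSCs from progenitors. Its summed level was 2063 to 2181 CPM (the counts of a gene per TMM-scaled library size) in control and 1978 to 2208 in the MC38 libraries. The 14 listed neutrophil and granule genes summed to 32807 to 33564 CPM in control and 57311 to 65814 CPM in the MC38 libraries. In that list 9 genes passed the test as higher and Mpo, the myeloperoxidase of early granules, as lower, against 1.04% and 0.569% of all genes. No listed granule gene was at 0 in all libraries.

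A ribosome has a small subunit, which reads the mRNA, and a large subunit, which joins amino acids and carries at its stalk the proteins that recruit elongation factors. Each core protein is made in amounts matched to the others, and most ribosomal protein mRNAs begin with a run of pyrimidines (the TOP motif) through which the mTOR pathway sets their translation. Blood formation is sensitive to this supply: inherited loss of a single copy of several ribosomal protein genes causes Diamond-Blackfan anaemia, and HSCs are known for low rates of protein synthesis.

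Ribosomal protein transcripts took a smaller share of the counts in the MC38 libraries than in control libraries. They made up 9.94 and 10.6% of the counts in the controls (10.3 ± 0.46, SD, n = 2) and 9.17, 8.70, 7.58 and 8.12% in MC38 replicates 1 to 4 (8.39 ± 0.69, SD, n = 4). Every MC38 library lay below both controls, and MC38 replicates 3 and 4 were the lowest. The 95% Wilson intervals of these shares, which cover counting error only, reached at most 0.017 percentage points to either side. With immunoglobulin and mitochondrially encoded genes left out of the total, the shares were 10.5 ± 0.47% in control and 8.68 ± 0.68% in the MC38 libraries. In a bulk library, fewer cells of a type that is rich in these transcripts and less of them per cell cannot be told apart, and a share says nothing of total RNA per cell.

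**Figure D1:**
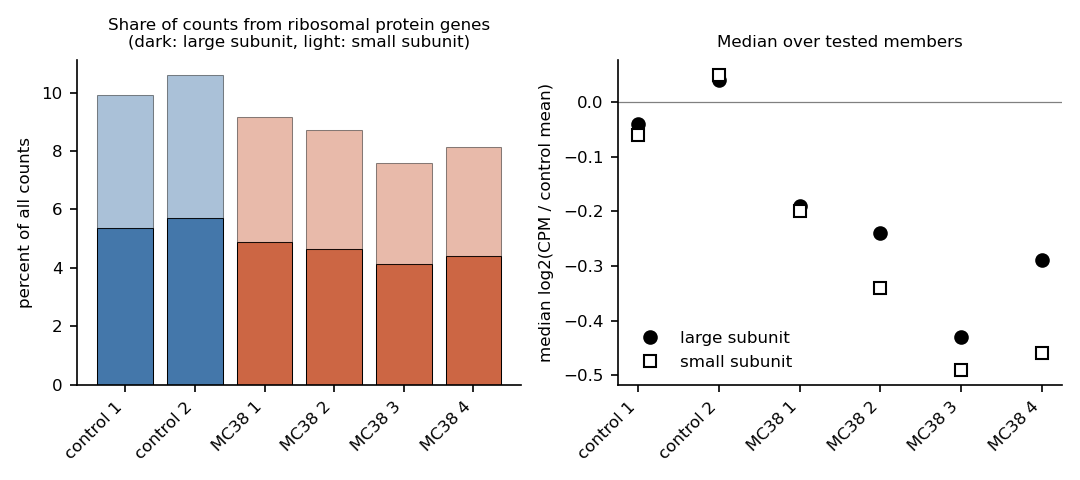
Left, percent of all counts of each library on large subunit (dark) and small subunit (light) ribosomal protein genes. Right, the median over tested members of log2 CPM relative to the control mean, with circles for the large and squares for the small subunit; all 4 MC38 libraries lie below both controls in both panels, with MC38 replicate 3 lowest.

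Of the 85 genes, 81 had enough counts to be tested. Rps12, Rps27 and Rpl10l had 0 counts in all 6 libraries, which allows at most 0.247 CPM in the shallowest library (3 counts), and Rpl39l had 12 and 2 counts in control and 1, 5, 7 and 9 in the MC38 libraries. Among the 81, 4 genes passed the test as lower in MC38 (edgeR quasi-likelihood test, two-sided, Benjamini-Hochberg adjusted p under 0.05 over 14226 genes) and 0 as higher. Over all genes tested, 0.569% were called lower and 1.04% higher. Without adjustment 42 members had p under 0.05 as lower and 2 as higher, against 8.22% and 9.26% of all genes. DESeq2 called 24 members lower and 2 higher (Rpl3l and Rps24), against 2.78% and 4.4% of all genes, and limma-voom called 6 lower and 0 higher, against 0.499% and 0.633%.

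The count of 4 depended on single libraries. It was 0 when either control was left out, 0 without MC38 replicate 2, 0 without MC38 replicate 4 and 19 without MC38 replicate 1. Without both MC38 replicates 3 and 4, whose counts on several pseudogene copies stand apart (described further down), the same 4 and Rps7 were called lower and Rps24 was called higher.

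The shift was broad and small. The fitted log2 fold change was negative for 78 of the 81 tested genes, with a median of -0.32 and a middle range from -0.46 to -0.19. Over all genes tested the median was 0.01 and 49.1% were negative. In 51 members (63%) all 4 MC38 libraries lay below both controls, which was so for 15% of all genes, and in 2 members (Rps24 and Rpl3l) all lay above, which was so for 14%. Ribosomal protein genes are abundant. Of the 3659 genes at or above the level of the least abundant core member (52.3 CPM as a mean over the 6 libraries), 55% were negative, the median was -0.04 and 22.3% had every MC38 library below both controls. The members' medians relative to the control mean were -0.19, -0.27, -0.45 and -0.34 in MC38 replicates 1 to 4.

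**Figure D2:**
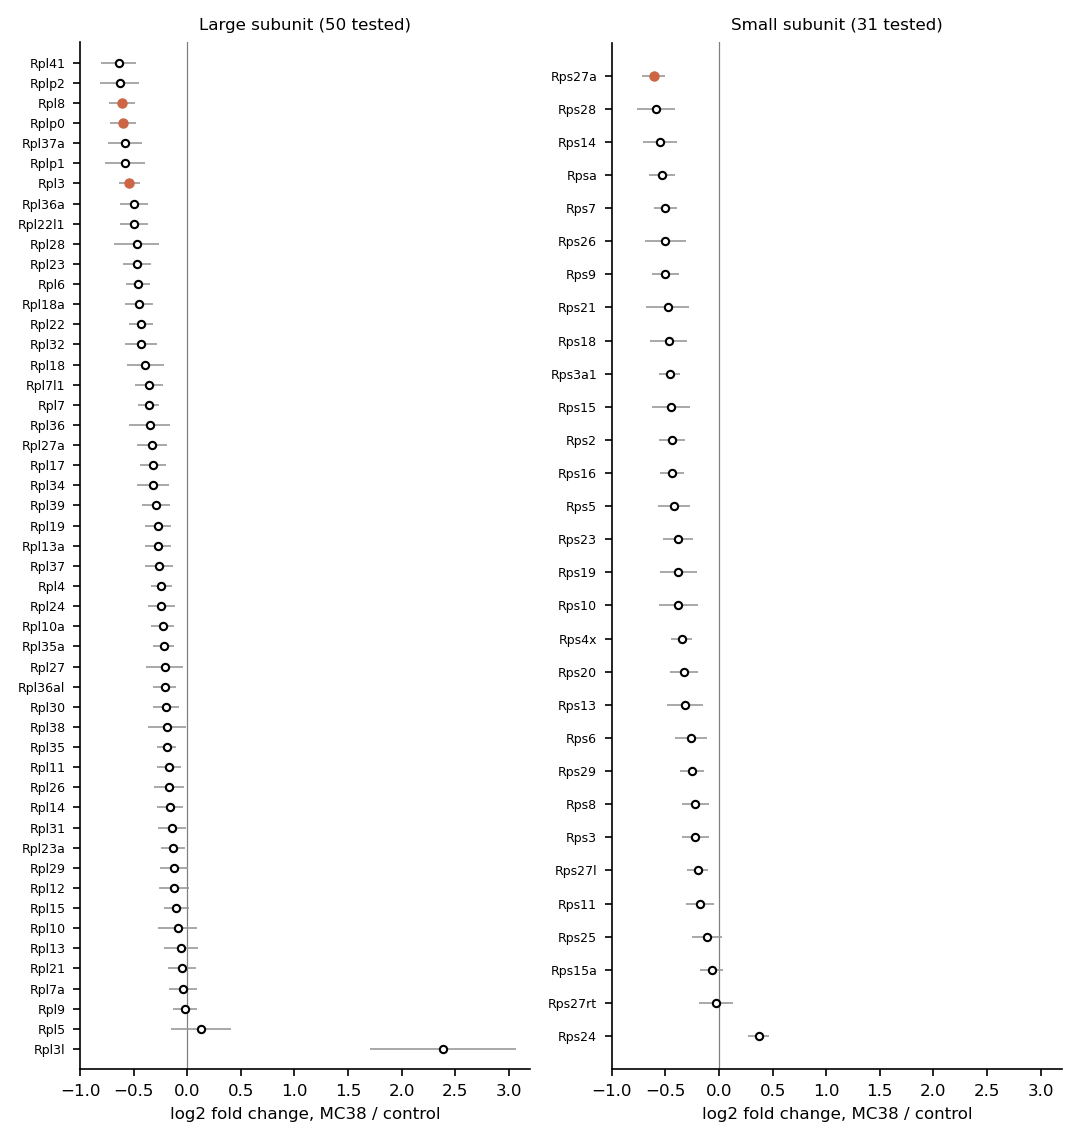
Fitted log2 fold change of MC38 over control for each tested large subunit (left) and small subunit (right) gene, with bars of 1 standard error; filled points are the 4 genes past the adjusted threshold, and 1 tested small subunit gene is not drawn. Nearly all points lie left of 0, and Rps24, Rpl5 and Rpl3l lie to the right.

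The 4 genes that fell are a stalk protein, the ubiquitin fusion gene and a pair of large subunit proteins. Rps27a, on chromosome 11 (29545846 to 29548109, minus strand, GRCm38), encodes ubiquitin joined to a small subunit protein. Its levels were 1104 and 1315 CPM in control and 729, 814, 815 and 817 CPM in the MC38 libraries. All MC38 libraries lay well below both controls, and 3 of them were almost equal (counts on copies of this gene are described further down). The means were 1210 ± 149 (SD, n = 2) and 794 ± 43.2 CPM (SD, n = 4), 34.4% lower, with a log2 fold change of -0.61 ± 0.11 (standard error) and an adjusted p of 0.0318. An exon of Clhc1 shares its position with Rps27a, and no source used here gives the strand setting of the counting.

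Rpl3, on chromosome 15 (80077791 to 80091868, minus strand), encodes a core protein close to the catalytic centre of the large subunit. It stood at 2377 and 2211 CPM in control and 1690, 1581, 1495 and 1531 CPM in the MC38 libraries. The groups were far apart relative to the spread within each, 2294 ± 117 (n = 2) against 1574 ± 84.8 CPM (n = 4). The log2 fold change was -0.54 ± 0.10 (adjusted p = 0.0325). Rpl8, also on chromosome 15 (76904078 to 76906314, plus strand), had 1413 and 1354 CPM in control and 1020, 965, 793 and 849 CPM in the MC38 libraries. It was 34.5% lower, with a log2 fold change of -0.61 ± 0.12 (adjusted p = 0.0451). No library of either group crossed into the range of the other.

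Rplp0, on chromosome 5 (115559467 to 115563727, plus strand), is the base of the stalk on which Rplp1 and Rplp2 sit. Its levels were 2894 and 2720 CPM in control and 2039, 1985, 1657 and 1729 CPM in the MC38 libraries. The log2 fold change was -0.60 ± 0.12 (adjusted p = 0.0393). All 3 stalk genes had every MC38 library below both controls, but only Rplp0 passed the test. Rplp1 had 1716 and 1645 against 1430, 1258, 829 and 981 CPM (log2 fold change -0.58 ± 0.19, adjusted p = 0.165). Rplp2 had 1267 and 1211 against 994, 896, 600 and 701 CPM (log2 fold change -0.63 ± 0.18, adjusted p = 0.117). Their fitted changes were as large as that of Rplp0, and their MC38 libraries were more spread, with replicates 3 and 4 lowest.

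**Figure D3:**
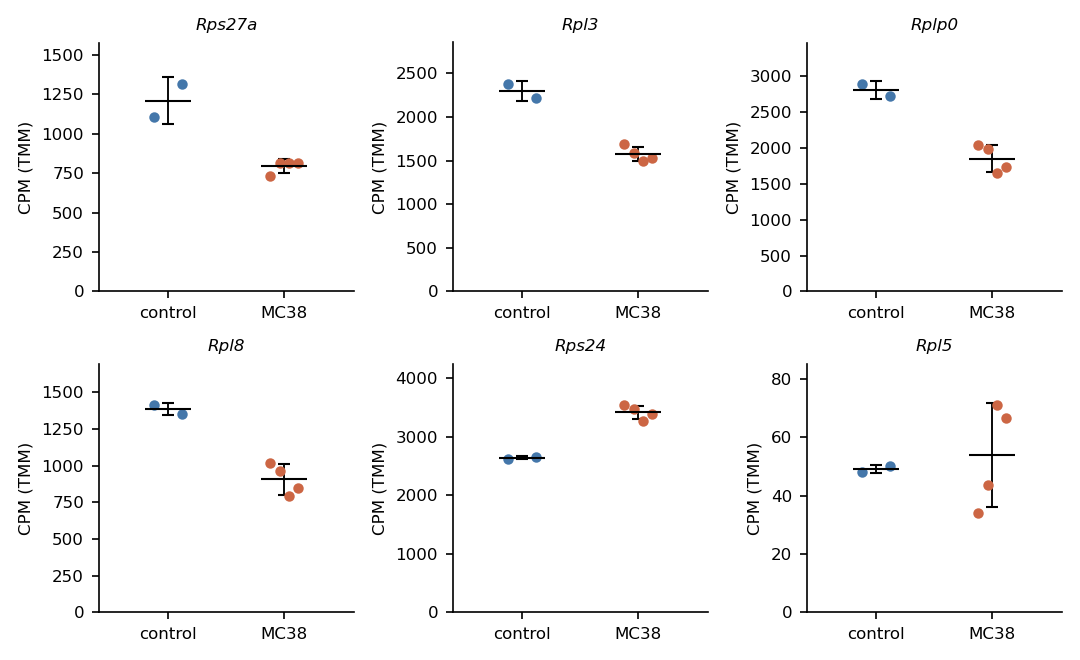
CPM after TMM scaling in each library for the 4 called genes and for Rps24 and Rpl5, with the group mean and 1 SD (control n = 2, MC38 n = 4). The 4 called genes show no overlap between groups, Rps24 lies higher in every MC38 library and Rpl5 spreads around the control level.

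Further large subunit genes did not pass the test, with fitted changes that ran from the size of the called genes to near 0. Rpl41, which encodes a very short peptide of the large subunit, had the lowest fitted log2 fold change of all members, -0.64 ± 0.16 (adjusted p = 0.0832). Its libraries read 2302 and 2698 CPM in control and 1938, 1715, 1268 and 1499 CPM in MC38. Rpl13a, known outside the ribosome as a regulator of inflammatory mRNAs, had 2236 and 2341 against 2133, 1949, 1681 and 1813 CPM (-0.27 ± 0.12, adjusted p = 0.268). At the other end, Rpl7a (log2 fold change -0.04, adjusted p = 0.914) and Rpl9 (-0.02, adjusted p = 0.954) overlapped between groups: Rpl9 had 1711 and 1811 CPM in control and 1861, 1745, 1594 and 1761 CPM in the MC38 libraries. The sign of both turned in some other settings.

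Rpl5 and Rpl11 belong with the smallest ribosomal RNA in a particle that binds Mdm2, the ubiquitin ligase of p53, when ribosome assembly fails. Rpl11 had 471 and 407 CPM in control and 370, 400, 416 and 372 CPM in the MC38 libraries (-0.17 ± 0.11, adjusted p = 0.479), with MC38 replicate 3 inside the control range. Rpl5 was counted at only 48.2 and 50.1 CPM in control and at 34.1, 43.8, 71.1 and 66.5 CPM in the MC38 libraries, with MC38 replicates on both sides of the controls. Nearly all counts of its sequence lay on a pseudogene copy, as described with the copies. On the p53 list of 10 genes edgeR called 0 (3 lower and 1 higher at an unadjusted p under 0.05). DESeq2 called 2 lower and 1 higher, and limma-voom called 0. For all genes the unadjusted shares were 8.22% lower and 9.26% higher, and DESeq2 called 2.78% and 4.4%. Mdm2 had 58.5 and 44.6 CPM in control and 67.7, 77.1, 104 and 84.1 CPM in the MC38 libraries (0.69 ± 0.21, adjusted p = 0.127). Cdkn1a, the p21 cell cycle inhibitor, had 235 and 235 CPM against 180, 173, 184 and 183 CPM (-0.39 ± 0.10, adjusted p = 0.102).

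The small subunit genes had a somewhat lower median than those of the large subunit, and the balance of the summed counts depended on which members were summed. The median log2 fold change was -0.38 over 31 small subunit genes (30 negative, 1 called, 22 with all MC38 libraries below both controls) and -0.26 over 50 large subunit genes (48 negative, 3 called, 29 below). The counts on large subunit genes divided by those on small subunit genes were 1.18 and 1.17 in control and 1.13, 1.15, 1.20 and 1.19 in the MC38 libraries, so the MC38 libraries fell on both sides of the controls. The same ratio was also taken over the members with no pseudogene named after them (their symbol with -ps). Pseudogenes under other names, such as Gm symbols, did not count for this choice. The ratio was then 0.782 and 0.761 in control and 0.725, 0.735, 0.752 and 0.754 in MC38 replicates 1 to 4. Every MC38 library was below both controls, so large subunit counts were relatively lower in this subset. The medians over all tested members went the other way, with the small subunit lower. Over all members, with the most counted gene of each subunit left out per library, the ratio was 1.21 and 1.2 in control. It was then 1.18, 1.2, 1.25 and 1.23 in MC38 replicates 1 to 4. Without MC38 replicates 3 and 4 the small subunit median was -0.24 and the large subunit median -0.21, closer to each other than with all 4 libraries. The difference between the subunits was not tested.

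The Diamond-Blackfan anaemia genes described here did not pass the edgeR test, and Rps24, described further on, had every MC38 library above both controls. Rps19, the gene most often mutated in that disease and the member of highest level per kilobase of transcript in the controls (5446 CPM per kb of median protein-coding transcript length), had 3471 and 3468 CPM in control. Per kilobase of all annotated exons together it was at 741 CPM, and Rps27rt was highest at 3980 CPM. In MC38 replicates 1 to 4 it had 3290, 2922, 2088 and 2385 CPM (-0.38 ± 0.17, adjusted p = 0.282). The controls were almost equal and every MC38 library lay below them, by little in replicate 1 and by much in replicate 3. Rps26 read 1238 and 1224 against 1099, 963, 634 and 785 CPM (-0.50 ± 0.19, adjusted p = 0.218). It followed the same order of MC38 libraries as Rps19, with replicate 3 lowest. Rps10 overlapped, with 803 and 946 CPM in control and 835 CPM in the highest MC38 library (adjusted p = 0.325).

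Rps7 was close to the threshold, with 1271 and 1277 CPM in control and 844, 860, 976 and 929 CPM in the MC38 libraries (-0.50 ± 0.11, adjusted p = 0.0519). Here MC38 replicates 3 and 4 were the highest of their group, the reverse of Rps19. Rps3a1, a core protein of the small subunit chosen here after its values were seen, was as close (2382 and 2454 against 1828, 1771, 1658 and 1761 CPM, -0.46 ± 0.10, adjusted p = 0.0512). On the large subunit, Rpl35a, like Rpl5 and Rpl11 a gene of the same disease, had 780 and 814 against 712, 697, 646 and 684 CPM (-0.22 ± 0.10, adjusted p = 0.303). Rps14, whose loss on one copy drives the anaemia of the human 5q- syndrome, had 3044 and 3305 CPM in control and 2641, 2282, 1717 and 2011 CPM in the MC38 libraries (-0.55 ± 0.16, adjusted p = 0.114). No library of these 4 genes crossed between groups.

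Rpsa, a small subunit protein that also serves as a laminin receptor precursor, had 2372 and 2799 CPM in control and 2018, 1845, 1613 and 1695 CPM in the MC38 libraries (-0.53 ± 0.12, adjusted p = 0.0676). Rps6, whose protein is the target of the S6 kinases, had 911 and 1059 against 701, 739, 988 and 866 CPM (-0.26 ± 0.15, adjusted p = 0.416). Its MC38 replicate 3 lay between the controls. Of 23 translation control genes, including Mtor and the S6 kinase genes, edgeR called 0 (5 lower and 2 higher at an unadjusted p under 0.05). DESeq2 called 1 lower and 1 higher, limma-voom called 0, and the median log2 fold change of the 23 was -0.01. Among all genes 8.22% were lower and 9.26% higher unadjusted, and DESeq2 called 2.78% and 4.4%. The S6 kinase gene Rps6kb2 was at 18.6 ± 0.944 CPM in control and 35.4 ± 4.95 CPM in the MC38 libraries (0.92 ± 0.22, adjusted p = 0.0683).

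Rps24 was the exception among the abundant members. It lies on chromosome 14 (24487125 to 24496959, plus strand), encodes a small subunit protein, and is itself a Diamond-Blackfan anaemia gene. Its levels were 2621 and 2656 CPM in control and 3539, 3462, 3262 and 3385 CPM in the MC38 libraries. The groups did not overlap, and both were tight, 2638 ± 24.7 (n = 2) and 3412 ± 118 CPM (n = 4). The log2 fold change was 0.37 ± 0.10, and the adjusted p of 0.095 in edgeR did not pass the threshold. DESeq2 gave 0.000916, limma-voom 0.0664, the fit without MC38 replicates 3 and 4 gave 0.0465, and over the alternatives the p ran from 0.000916 to 0.374. Every alternative gave a fitted change between 0.35 and 0.42. A pseudogene copy of Rps24, Gm11878, was at a mean of 68.8 CPM in control and 120 CPM in the MC38 libraries (0.80, adjusted p = 0.0647).

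The paralogs had their own range of values. Rpl22 and Rpl22l1 are a pair in which Rpl22 is known to hold down its paralog, and the 2 coding sequences were 67.5% identical over 385 aligned bases. Both had every MC38 library below both controls: Rpl22 stood at 442 and 514 against 360, 348, 360 and 354 CPM (-0.43 ± 0.11, adjusted p = 0.0832). Rpl22l1 stood at 315 and 397 against 240, 238, 257 and 269 CPM (-0.50 ± 0.13, adjusted p = 0.0814). Both fitted changes had the same sign, and neither passed the test.

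Rpl3l, the form of Rpl3 known from heart and skeletal muscle, shares 73.2% of its coding bases with Rpl3. It was near the floor, with 8 and 11 counts in control and 58, 56, 102 and 44 counts in the MC38 libraries, or 0.672 and 0.908 against 3.90, 3.83, 5.68 and 3.26 CPM. All MC38 libraries were higher, with a log2 fold change of 2.39 ± 0.68 and an adjusted p of 0.116. DESeq2 called Rpl3l higher. So did the fit of all 7 columns, which counts the dependent control column as a library and so understates the spread. Rpl3l passed the filter on low counts through the MC38 group. Per kilobase of transcript its level in the controls was 0.765 CPM, against 2811 CPM for Rpl3 (0.481 and 723 CPM per kilobase of all annotated exons). Rpl36al had 433 and 433 against 407, 377, 345 and 368 CPM (adjusted p = 0.364). Rpl7l1 had 169 and 170 against 151, 132, 122 and 124 CPM (adjusted p = 0.186). Rps27l, a p53 target with a ribosomal protein fold, had 350 and 381 against 312, 328, 321 and 313 CPM (adjusted p = 0.365). In these 3 genes every MC38 library was lower than both controls, by 12.8 to 22.1% of the mean.

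For Rps27 the counts cannot be assigned to a gene. The core gene had 0 counts in all 6 libraries, and Rps27rt, a retrogene on chromosome 9 (114982366 to 114982739, minus strand) with a single exon, had 17042 to 26118 counts per library. The coding sequences of both genes, 252 bases in the GENCODE M21 transcripts, were identical at every base, so a read inside them cannot be placed on either gene. The shared coding sequence is printed without capitals because no base differs.
Rps27 and Rps27rt: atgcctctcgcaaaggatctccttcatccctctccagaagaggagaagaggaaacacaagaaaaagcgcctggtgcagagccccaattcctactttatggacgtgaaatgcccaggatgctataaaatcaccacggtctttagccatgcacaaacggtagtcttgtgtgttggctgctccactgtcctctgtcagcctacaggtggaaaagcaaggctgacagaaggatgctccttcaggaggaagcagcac
The levels listed under Rps27rt were 1432 and 1545 CPM in control and 1756, 1562, 1136 and 1369 CPM in the MC38 libraries (-0.03 ± 0.16, adjusted p = 0.945), with the MC38 libraries on both sides of the controls. The handling of reads that match several places is not stated, so this value may hold reads of Rps27, of Rps27rt or of both.

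Copies touch many other members, since ribosomal protein mRNAs are among the most frequent sources of processed pseudogenes. A search of the annotated transcripts found 725 copies (at least 90% identical over at least 100 bases and 50% of the copy), of which 635 had a count. The copies took 18.7 and 17.6% of all counts on members and copies in control, and 19.3, 18.6, 14.1 and 15.9% in the MC38 libraries. For 23 members over 10% of these counts lay on copies, and for 15 over 50%. Rps12, at 0 counts itself, had all of them on copies, mainly Rps12-ps3 and Rps12l1. For Rpl5 it was 96.7%, for Rpl12 90.6%, for Rpl31 89.8%, for Rps16 88.8% and for Rpl27a 88.6%. The members of lowest level per kilobase of transcript in the controls, Rpl5 (34.2 CPM per kb), Rpl12 (83.0) and Rpl27a (111), were thus genes with most of their counts on copies.

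MC38 replicates 3 and 4 carried fewer counts on several copies. For Rpl13 the copies held 45.1 and 32.3% in control, 43.4 and 39.7% in MC38 replicates 1 and 2, and 5.08 and 12.4% in MC38 replicates 3 and 4. The gap is far wider than the 95% Wilson interval of any of these shares, at most 1.1 percentage points to either side. That bound covers the 23 members except Rps12, which had no counts of its own. The copy behind the gap for Rpl13 was Gm12918 on chromosome 4. It read 1814 and 1254 CPM in control and 1515, 1323, 139 and 365 CPM in the MC38 libraries. Of the 27 copies with at least 6000 counts over the 6 libraries, 24 were lowest in MC38 replicate 3, and 22 had both MC38 replicates 3 and 4 below the other 4 libraries. What set these libraries apart was not tested.

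**Figure D4:**
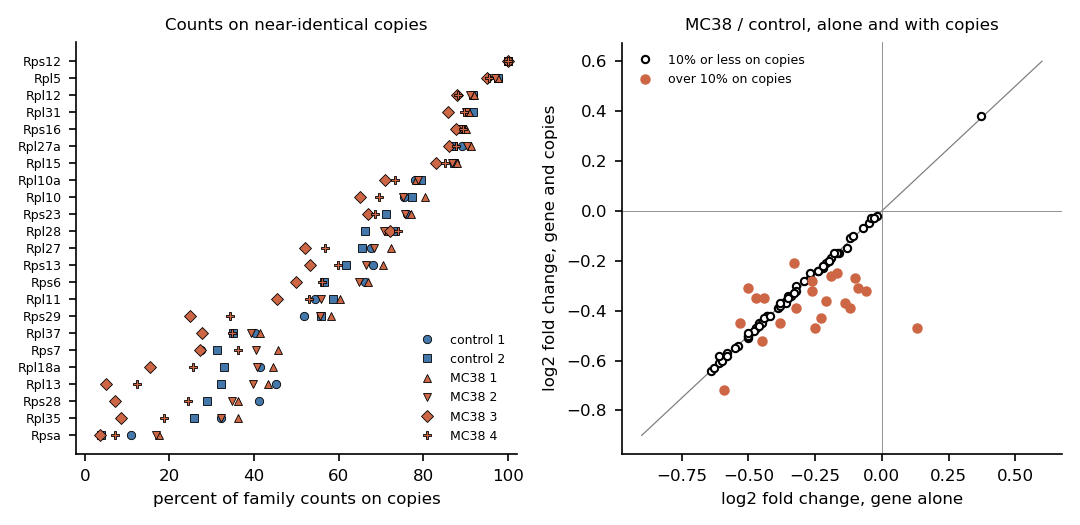
Left, percent of the counts on each member and its near-identical copies that lay on the copies, for the 23 members above 10%, with 1 symbol per library. Right, fitted log2 fold change of each tested member alone against that of the member summed with its copies (Rpl3l is outside the range shown); MC38 replicate 3 is lowest for most members at left, and Rpl5 moves from 0.13 to -0.47 at right.

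The change was also fitted on the sum of each member and its copies. The sum was negative for 80 of 82 families tested, with a median log2 fold change of -0.35 (-0.32 for the large and -0.38 for the small subunit), and the same 4 genes with Rps3a1 were called lower. Rpl5 and its copies read 1890 and 2145 CPM in control and 1430, 1448, 1469 and 1494 CPM in the MC38 libraries (-0.47 ± 0.10, adjusted p = 0.0516), where Rpl5 alone had given 0.13 ± 0.28 (adjusted p = 0.864). Its copy Gm15500, on chromosome 7, was the 1 copy among 216 tested that passed the test, as lower (1846 and 2090 against 1382, 1409, 1384 and 1448 CPM, -0.49 ± 0.10, adjusted p = 0.0489). The share called lower over all genes was 0.569%. Rpl13 went from -0.06 alone to -0.32 with copies, and Rpl12 from -0.12 to -0.39. Rps7 went the other way, from -0.50 to -0.31 (adjusted p = 0.164), and Rps6 with its copies read 2676 and 2441 against 2143, 2095, 1995 and 1940 CPM (-0.32, adjusted p = 0.143), without the overlap of the gene alone. Over the 6 libraries together the 4 called genes had at most 8.87% of their counts on copies (Rps27a), and Rps24 had 3.84%. By library the share of Rps27a was 8.73 and 7.4% in control and 19.1, 12.7, 0.57 and 5.46% in MC38 replicates 1 to 4.

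Within the MC38 group, replicates 3 and 4 had lower levels than replicates 1 and 2 for most members. The median log2 ratio of the 2 pairs was -0.20 over the 81 members, with 59 below 0, and -0.01 over all genes. Across 75 tested core members this ratio had a Spearman rho of 0.45 with transcript length, -0.41 with GC content and 0.60 with the percent of counts on copies, as a description of genes that share the same libraries. The fold change of MC38 over control had a rho of 0.09 with length, -0.21 with GC content and 0.40 with the percent on copies. In length classes of 25 core members each, the shortest (367 to 614 bases), the middle and the longest (860 to 3706 bases) had median log2 fold changes of -0.34, -0.32 and -0.33, while the ratio within the MC38 group was -0.32, -0.23 and -0.07. Short transcripts were thus lower in MC38 replicates 3 and 4 than in replicates 1 and 2, and the medians of the change from control differed little between the classes.

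The promoters of the members were read from RefSeq (GRCm38.p6), which held an entry for 65 of them, from 250 bases before to 50 bases after the annotated start. The letters CCGGAAG, the core that ETS factors such as GABP bind, were found on either strand in 40% of the members and in 9.93% of all 27025 genes. CTTTCC was found in 53.8% against 29.3%, GCCATCTT, the YY1 core, in 9.23% against 3.19%, and the TATA letters TATAAA in 10.8% against 15.7%. A C followed by at least 6 further pyrimidines, on the coding strand and starting within 20 bases of the start, was found in 56.9% against 23.6%. These runs can overlap CTTTCC. Among tested members, those with and without CCGGAAG had median log2 fold changes of -0.32 and -0.26, those with and without CTTTCC -0.34 and -0.26, and those with and without GCCATCTT -0.27 and -0.30. The medians were -0.50 for 7 members with TATAAA and -0.26 for 54 without, and -0.25 and -0.38 with and without the pyrimidine run.

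The stretches from 60 bases before to 20 bases after the start are shown for a called gene, for genes near the threshold, for a stalk gene, for the exception Rps24 and for the paralog Rpl22l1, 5′ to 3′ on the coding strand, with every match to the letters above in capitals.
Rplp0, chr5:115559407-115559486, plus strand: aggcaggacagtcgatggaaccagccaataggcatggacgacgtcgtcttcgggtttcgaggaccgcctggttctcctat
Rps7, chr12:28635934-28636013, minus strand: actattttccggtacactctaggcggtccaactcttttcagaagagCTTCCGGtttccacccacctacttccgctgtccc
Rps3a1, chr3:86142649-86142728, minus strand: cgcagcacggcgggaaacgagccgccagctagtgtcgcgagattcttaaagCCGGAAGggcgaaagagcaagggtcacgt
Rplp2, chr7:141447591-141447670, plus strand: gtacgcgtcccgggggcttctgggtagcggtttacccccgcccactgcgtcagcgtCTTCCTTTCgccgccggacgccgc
Rps24, chr14:24490618-24490697, plus strand: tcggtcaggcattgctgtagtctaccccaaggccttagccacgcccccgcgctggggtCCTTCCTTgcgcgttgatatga
Rpl22l1, chr3:28805448-28805527, plus strand: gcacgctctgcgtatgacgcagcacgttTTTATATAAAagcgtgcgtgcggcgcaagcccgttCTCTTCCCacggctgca
Rps7 and Rps3a1 hold the ETS letters before the start, on opposite strands. Rplp2, whose fitted change was -0.63, and Rps24, whose fitted change was 0.37, both hold a pyrimidine run at the start. Rpl22l1 holds TATAAA on both strands, overlapping, and a pyrimidine run, and Rplp0 holds none of these letters in this stretch. Rps24 has 2 annotated starts, of which the first entry is shown. Each match is a run of letters only.

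Genes that work beside the ribosome had mostly negative fitted changes too. Of the ribosome-linked genes outside the symbol rule, Rack1, a scaffold on the small subunit, fell from 1743 and 1778 CPM in control to 1331, 1217, 1022 and 1117 CPM in the MC38 libraries (-0.59 ± 0.12, adjusted p = 0.0487). Fau, a ribosomal protein fused to a ubiquitin-like protein, had a log2 fold change of -0.31 (adjusted p = 0.208). Among 20 translation factors and other genes with TOP mRNAs, 20 were negative and the median was -0.41. EdgeR called 2 lower and 0 higher, against 0.569% and 1.04% of all genes. The called genes were Eef1b2, an exchange factor for the elongation factor (597 and 620 against 405, 448, 447 and 412 CPM, adjusted p = 0.0479), and Eif3l, a subunit of an initiation complex (137 and 140 against 73.4, 82.1, 69.8 and 92.7 CPM, -0.80 ± 0.15, adjusted p = 0.0292). Eef1a1, the elongation factor that brings tRNA, was at 6349 ± 167 CPM in control and 4674 ± 239 CPM in the MC38 libraries (adjusted p = 0.0568). Tpt1, a classical TOP mRNA, was at 1814 ± 165 and 1813 ± 160 CPM, and its groups overlapped.

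The 77 tested mitochondrial ribosomal protein genes, which build a separate ribosome in the organelle, had a median of -0.24 with 61 negative. EdgeR and limma-voom called 0 of them. DESeq2 called 4 lower and 17 had an unadjusted edgeR p under 0.05 as lower, against 2.78% and 8.22% of all genes. Of 26 ribosome biogenesis factors edgeR and limma-voom called 0 and DESeq2 1 as higher, against 4.4% of all genes in DESeq2. Unadjusted, 2 were lower and 1 higher, against 8.22% and 9.26% of all genes, and the median of the 26 was -0.21. In the Myc family list, 5 of 7 genes had a positive fitted change, with a median of 0.41. EdgeR called 1 of them higher, DESeq2 2 and limma-voom 1, against 1.04%, 4.4% and 0.633% of all genes. Myc, whose product drives ribosome production, had 308 and 289 CPM in control and 392, 406, 424 and 399 CPM in the MC38 libraries (0.44 ± 0.11, adjusted p = 0.0726). Mxd1, which competes with Myc for their common partner and is high in maturing neutrophils, rose from 133 and 122 CPM to 278, 281, 296 and 295 CPM (1.17 ± 0.11, adjusted p = 0.000916).

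Other measures differed between the same libraries. Beside the granule genes given above, the share of counts on mitochondrially encoded genes was 1.73 ± 0.027% in control and 2.59 ± 0.52% in the MC38 libraries, with 2.01, 2.31, 3.14 and 2.88% in MC38 replicates 1 to 4. All 13 such genes had a positive fold change with a median of 0.68. EdgeR and limma-voom called 0 of them. DESeq2 called 8 higher and 10 had an unadjusted edgeR p under 0.05 as higher, against 4.4% and 9.26% of all genes. MC38 replicates 3 and 4, lowest in ribosomal protein share, were highest here. The share of counts on immunoglobulin genes was 0.589 and 0.504% in control and 0.869, 0.846, 0.735 and 0.759% in MC38 replicates 1 to 4, higher in every MC38 library. Macrophage and dendritic cell markers summed to 95.2 to 103 CPM in control and 167 to 191 CPM in the MC38 libraries. Of 9 tested, edgeR called C1qa and Siglech higher, DESeq2 called 5 higher and limma-voom 1, the last against 0.633% of all genes. C1qa was near the floor in control, at 0.084 and 0.248 CPM, and passed the filter on low counts through the MC38 group. Of the 11 B lineage, 10 T and NK cell, 10 erythroid and 5 megakaryocyte markers edgeR and limma-voom called 0 and DESeq2 1, 2, 0 and 1 as higher (1, 4, 0 and 1 unadjusted as higher, and 0, 0, 2 and 1 as lower). Their summed levels were 718 to 753, 422 to 488, 1503 to 1677 and 234 to 262 CPM in control. In the MC38 libraries they were 680 to 852, 403 to 449, 1089 to 1496 and 201 to 239 CPM. In the same order, the median log2 fold changes were 0.38, 0.96, -0.37 and -0.10, with 9, 8, 1 and 2 genes positive. Single genes dominated 2 of the sums. Nkg7 had a mean of 420 CPM in control and 365 CPM in MC38 (-0.20) in the T and NK list. Jchain had 432 and 368 CPM (-0.23) in the B lineage list. No marker of these lists was at 0 in all 6 libraries. The shares of all genes called higher and lower were 1.04% and 0.569% in edgeR and 4.4% and 2.78% in DESeq2. Unadjusted, these shares were 9.26% and 8.22% in edgeR. Of 8 immediate early genes 2 were called lower, Fosb and Atf3, with summed levels of 20457 to 20868 CPM in control and 16727 to 17528 CPM in the MC38 libraries. The part of the granule RNA, the other cell types or the mitochondrial and immunoglobulin shares in the lower ribosomal protein levels was not tested.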

How the data were processed

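The authors deposited a table of whole-number read counts per Ensembl gene, with 7 columns. Per the submitters' processing notes, the tools were HTSeq 0.10.0, STAR 2.6.1 and Trim Galore 0.5.0, with mm10 as the build; strand setting and treatment of multiply mapped reads are not stated. Symbols and positions came from GENCODE M21 (GRCm38), which named 27797 gene IDs. Counts of the 6 libraries were tested in edgeR 4.0.16 (R 4.3.3) with TMM scaling, filterByExpr and the robust quasi-likelihood test, with Benjamini-Hochberg adjustment over 14226 genes and a threshold of 0.05. Fold changes are MC38 over control with standard errors; CPM are TMM-scaled. DESeq2 1.42.0 and limma 3.58.1 were alternatives. Copies were found with blastn 2.17.0.

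On simulated counts for this comparison (13809 genes), 39% of 100 genes changed by 1 on the log2 scale were recovered. Of 100 genes changed by 0.5, 1% were recovered, and there were 10 false calls. Changes of the size seen here were thus mostly missed among genes at large. The changed genes were drawn at random from all genes above a mean of 10 CPM. Tested core members had a mean of at least 52.3 CPM, so the recovery for the members themselves was not measured. PCR copies were counted as reads, since no molecular identifiers are named. Of the members, 39 share an exon position with another gene, mostly small nucleolar RNAs. The genes named are those past the threshold, the 5 largest and 5 smallest fold changes (mean of at least 5 CPM), the 5 highest and 3 lowest per kilobase (median spliced length of the protein-coding transcripts) and a list set by role. The members and lists were chosen with earlier results of these data known. The results of 2 genes on these lists are not reported here.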

Additional observations from a re-analysis of the deposited data

Results flagged for a closer look

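Rps27a stood out for how its MC38 libraries were spaced: 3 of them lay between 814 and 817 CPM and MC38 replicate 1 lay at 729 CPM, a gap of 0.960 of the group's range, above Dixon's critical value for 4 libraries. Of 35 groups examined, 1 was marked in this way, and chance marks about 1 group in 20. The gene was called lower with and without MC38 replicate 1. In that library 19.1% of the counts on Rps27a and its copies lay on copies. With the copies summed, MC38 replicates 1 to 4 read 909, 930, 827 and 853 CPM, so replicate 1 was not the lowest.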

How the results depend on the processing

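The 4 genes called lower are the same with RLE scaling and with TMM factors computed without the ribosomal protein genes. Without a filter on low counts 16 members were lower, and 302 genes of all were higher and 202 lower. DESeq2 called 24 members lower and 2 higher (all genes: 626 higher, 395 lower), and limma-voom 6 lower (all genes: 90 higher, 71 lower). All 7 columns together gave 24 lower and 2 higher (all genes: 791 higher, 663 lower). That fit counts control replicate 3 as an independent library, though it follows the sum of control replicates 1 and 2. Its p-values understate the spread of the controls, and its calls are no independent check. The fit described in the results gave 148 genes of all higher and 81 lower. Leaving out each library in turn gave 0 to 19 members lower and 0 higher, with 44 to 259 genes of all higher and 16 to 183 lower; with 1 control left, that control was assumed to vary like the MC38 libraries. The median of the members ran from -0.38 to -0.23 over all settings.

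With the label's number as a replicate block, 11 members were lower and 1 higher (all genes: 269 higher, 190 lower). Deviations of same-numbered libraries correlated at 0.061 and -0.017, so these numbers are not taken as pairs. In the fit with the replicate block Rpl5 turned to -0.35, Rpl7a to 0.10, Rpl9 to 0.03 and Rps27rt to 0.16.

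Settings added after seeing the data were sums over copies, which turned Rpl5 to -0.47, and the fit without MC38 replicates 3 and 4, which called 1 member higher and 5 lower. The latter put the small subunit median at -0.24 and turned Rpl5 to -0.33, Rpl7a to 0.12, Rpl9 to 0.05 and Rps27rt to 0.17. With 1 library left out, Rpl12 ran from -0.23 to 0.00, Rpl5 from -0.04 to 0.30, Rpl7a from -0.11 to 0.03, Rpl9 from -0.06 to 0.03 and Rps27rt from -0.14 to 0.07. The MC38 over control ratio of large to small subunit counts was 0.996. Over members with no -ps pseudogene of their name it was 0.961, with every MC38 library below both controls. The cause of these changes was not tested. With 2 control libraries, single changes of this size are near the limit of the design.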
